A study of Mus musculus with 5 samples.

Results

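The genes described here are the splicing factors and heterogeneous nuclear ribonucleoproteins (hnRNPs) of mouse macrophages exposed to lipopolysaccharide (LPS), the cell wall component of Gram-negative bacteria that activates the receptor TLR4. They were chosen by symbol, as every gene whose name begins with Hnrnp, Snrp or U2af, with Srsf or Prpf and a number, or with Sf3a or Sf3b and a number. Earlier results of these data were known when this rule was set. The choice found 66 of the 13339 genes listed, namely 10 Srsf, 20 Hnrnp, 9 Sf3, 11 Snrp, 13 Prpf and 3 U2af genes. The libraries came from bone marrow-derived macrophages of wild-type C57BL/6 mice aged 8 weeks, cultured with the growth factor M-CSF for 5 days. LPS was given at 100 ng/ml, and RNA was sequenced at 0, 4, 8, 12 and 24 h, with 1 library per time and no replicates, so that each difference between times carries no replicate check and no test was made. All 5 libraries are labelled WT2, no library of unstimulated cells kept in culture for the same hours was analysed, and the sources used here do not say whether 1 or several mice gave the marrow. A label on RNA extraction names mDCs where the other labels name macrophages.

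Removal of introns from a primary transcript is carried out by the spliceosome, which is assembled from small nuclear ribonucleoproteins (snRNPs). The snRNPs hold uridine-rich RNAs in rings of Sm proteins or, in the U6 particle, of related Lsm proteins, the U1 and U2 particles recognise the splice sites and the branch point, and the U4/U6.U5 particle joins before catalysis. SR proteins generally favour the use of an exon next to their binding sites, whereas many hnRNPs favour skipping, and members of both families are known to act on the splicing and turnover of inflammatory transcripts in macrophages.

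Values are FPKM as deposited, that is fragments corrected for transcript length and for the mapped fragments of each library. Differences are given as log2(FPKM + 1) at the later time minus the earlier one, which understates the change of low genes, and a gene was called higher or lower where that difference reached 2-fold. All 66 genes averaged 1 FPKM or more over the libraries, the filter that 9795 genes of the table passed. Macrophage identity was checked with 8 markers, of which Cd68 stood between 824.49 and 1896.25 FPKM and Adgre1, which encodes F4/80, between 340.49 and 966.96 FPKM. Cd14, Csf1r, Fcgr1 and Itgam lay between 64.03 and 931.13 FPKM. The lowest were Lyz2, between 19.07 and 37.54 FPKM, and Mertk, between 16.91 and 50.14 FPKM. Of the 9 lymphoid and 6 dendritic cell markers, those in the table summed to at most 4.03 and 2.35 FPKM in any library, and none passed the filter. Mast cell and stroma markers summed to at most 2.30 and 5.96 FPKM, and 1 and 2 of them passed it. The 6 neutrophil markers in the table summed to 67.48, 59.99, 26.26, 16.21 and 20.41 FPKM at 0, 4, 8, 12 and 24 h, and their part in the differences of splicing factors was not tested. In bulk RNA, fewer cells of a type and less RNA per cell cannot be told apart. The depth, estimated from the steps between low values, was 18.8 to 19.2 M (megareads) per library. Exons of 15 of the 66 genes overlap those of another protein-coding gene, 4 of them on the same strand. Among the genes described below these are Snrpa (BC024978), Snrpa1 (Gm45213), Snrpf (Ccdc38), Snrpd3 (Gucd1), Srsf2 (Mettl23 and Mfsd11), Hnrnpk (Rmi1), Hnrnpu (Cox20), Sf3b3 (Cog4) and U2af1l4 (Gm49396 and Psenen). Whether reads were counted by strand is not given in the sources used here, so reads of such a pair cannot be told apart.

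The stretches of DNA before the transcription starts of 5 of these genes are shown here for these reasons. Prpf38a and Prpf4 were at least 2-fold higher at 4 h on every scale used below. Snrpa, Snrpe and Snrpf belong to the snRNP genes that were lower by that much at both 4 h and 24 h as deposited, a call that none of them kept at either time once differences were adjusted for transcript length. The sequences are RefSeq's for the build GRCm38.p6, read 5′ to 3′ on the gene's strand. Each ends 1 to 113 bases before the first transcribed base and was kept clear of annotated exons and of the gene itself. Capitals mark matches to the motifs named in the paragraph on promoters.
Prpf38a, chr4:108579337-108579422, minus strand: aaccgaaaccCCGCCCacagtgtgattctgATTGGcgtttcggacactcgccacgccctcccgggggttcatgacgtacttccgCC
Prpf4, chr4:62408643-62408761, plus strand: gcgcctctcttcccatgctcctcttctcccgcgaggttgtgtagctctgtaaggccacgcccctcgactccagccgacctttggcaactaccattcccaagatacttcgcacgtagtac
Snrpa, chr7:27196272-27196521, minus strand: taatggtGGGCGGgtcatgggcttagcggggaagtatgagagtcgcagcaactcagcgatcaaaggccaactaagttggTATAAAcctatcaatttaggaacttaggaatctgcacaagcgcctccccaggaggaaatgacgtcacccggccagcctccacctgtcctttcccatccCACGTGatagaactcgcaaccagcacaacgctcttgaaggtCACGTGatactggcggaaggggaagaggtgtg
Snrpe, chr1:133610292-133610410, minus strand: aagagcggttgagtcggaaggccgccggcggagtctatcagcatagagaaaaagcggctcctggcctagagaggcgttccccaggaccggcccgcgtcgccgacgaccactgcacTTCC
Snrpf, chr10:93589771-93589908, minus strand: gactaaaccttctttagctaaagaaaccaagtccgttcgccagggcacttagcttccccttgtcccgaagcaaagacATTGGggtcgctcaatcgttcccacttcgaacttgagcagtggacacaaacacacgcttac
In these letters Prpf38a held a GC box and CCAAT boxes, 1 of which runs past the end shown. Prpf4 held none of the motifs searched, Snrpa held 2 E-boxes, a TATA box and a GC box, and Snrpf held a CCAAT box. The match at the end of the Snrpe stretch continues past it.

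Most splicing factor mRNAs kept close to their starting level through the 24 h of LPS. Of the 66 genes, 49 (74.2%) stayed within 2-fold in all 8 pairs of times compared, against 3376 (34.5%) of all genes tested, and 27 (40.9%) stayed within 1.5-fold of 0 h at every later time, against 1510 (15.4%). Relative to the median gene the first of these counts was 48 (72.7%), against 46.7% of all genes tested, and adjusted for transcript length, as explained below, it was 47 (71.2%), against 50.4%. The steadiest as deposited was U2af2, the U2AF subunit that binds the polypyrimidine tract, at 49.86, 51.97, 54.00, 49.41 and 51.75 FPKM at 0, 4, 8, 12 and 24 h. Its highest level was 1.09 times its lowest, although its difference at 4 h against 0 h, 0.059 as deposited, was 0.75 relative to the median gene and 0.93 length-adjusted. Together the 66 genes summed to 2920.76, 2396.85, 2482.71, 2165.85 and 2327.57 FPKM, which was 0.563%, 0.551%, 0.522%, 0.454% and 0.478% of all FPKM in the library. The sum was thus highest at 0 h and lowest at 12 h.

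The groups differed in how their sums moved. The 11 Snrp genes summed to 595.96, 278.12, 325.25, 290.69 and 275.55 FPKM from 0 to 24 h, with all 4 later sums far below the first. The 20 Hnrnp genes, the most abundant group, summed to 1263.21, 1135.76, 1177.46, 986.57 and 1094.19 FPKM. The 10 Srsf genes summed to 446.29, 417.96, 423.20, 360.74 and 394.89 FPKM. The Sf3 genes summed to 326.75, 263.27, 265.60, 254.20 and 249.86 FPKM. Of the 6 groups, only Prpf had sums above its 0 h value at all 4 later times, at 177.30, 216.65, 198.93, 187.27 and 213.25 FPKM. In these sums Prpf38a decides this at 4, 8 and 12 h: without it the other 12 summed to 166.30, 155.15, 153.61, 162.37 and 193.12 FPKM, above 0 h at 24 h alone. As shares of all FPKM in the library, these 12 were at 0.0320%, 0.0357%, 0.0323%, 0.0340% and 0.0397%, above 0 h at all 4 later times. The U2af genes summed to 111.25, 85.09, 92.27, 86.38 and 99.83 FPKM. Shares of the library at 4 h were above 0 h for Hnrnp (0.261% against 0.243%) and Srsf (0.0962% against 0.0860%), although their sums were lower. For Snrp, Sf3 and U2af the shares at 4 h were below 0 h too.

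**Figure D1:**
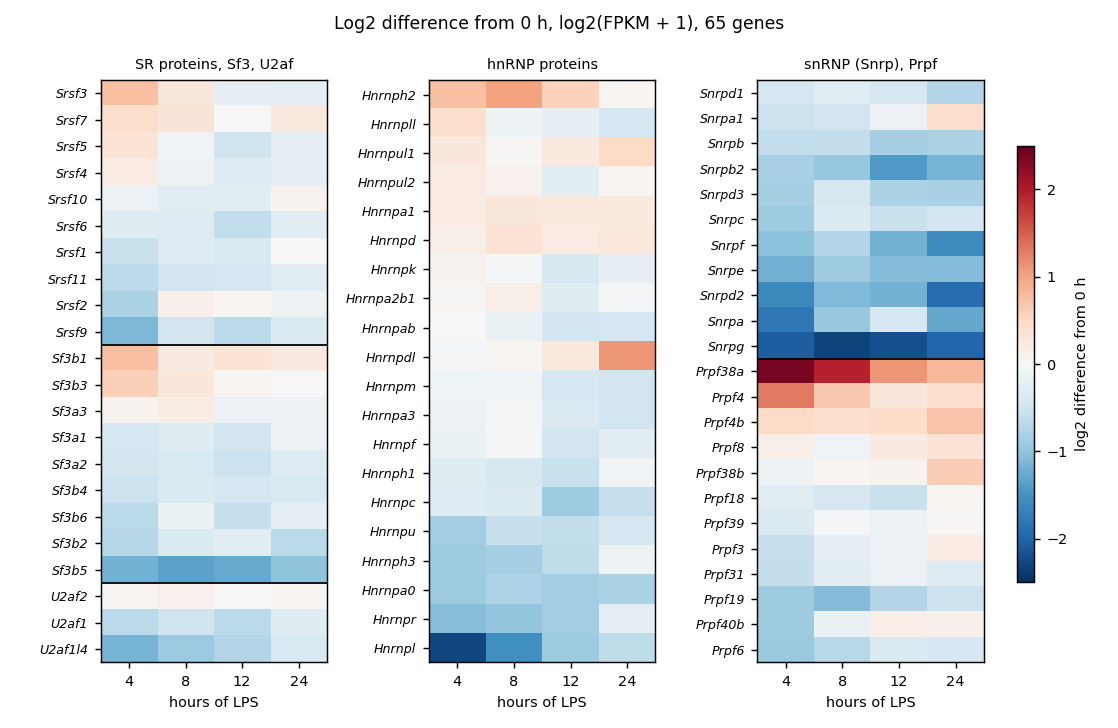
Log2 difference of log2(FPKM + 1) from 0 h for 65 of the 66 genes (rows, by group, ordered by the 4 h value) at 4, 8, 12 and 24 h (columns), 1 library per time. Red is higher than at 0 h and blue lower; Prpf38a (2.38 at 4 h) is the darkest red, and Hnrnpl (-2.28 at 4 h) and Snrpg (-2.06 at 4 h) are among the darkest blue.

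At 4 h of LPS, 2 of the 66 genes were higher by 2-fold or more than at 0 h and 10 were lower by 2-fold or more, which is 3.03% and 15.2% of them. Over all 9795 genes tested the corresponding shares were 12.2% higher and 38.1% lower, so both shares of the splicing factors were below the background. The libraries differed as a whole: the median of all genes tested was -0.70, -0.49, -0.35 and -0.11 at 4, 8, 12 and 24 h against 0 h and 0.49 at 24 h against 4 h. The median of the 66 genes at 4 h was -0.39 as deposited but turned to 0.31 relative to the median gene. Differences at 4 h were also lower for genes with shorter transcripts, and after the trend of the difference with transcript length was removed over all genes (called length-adjusted from here on), the median of the 66 was 0.40. The counts turned with it, to 11 higher and 3 lower relative to the median gene and 12 higher and 2 lower after length adjustment. Relative to the median gene that was 16.7% and 4.55%, against 21.5% and 13.4% of all genes tested. Length-adjusted it was 18.2% and 3.03%, against 19.8% and 11.9%, so on neither scale did the members' shares exceed the background. Over all genes, 24.3% of those apart were higher as deposited, against 61.6% relative to the median gene and 62.4% after length adjustment. The direction of a difference at 4 h thus depended on the scale for many genes. The value relative to the median gene is that as deposited less the median of -0.70, for every gene alike, and the length-adjusted value is given beside most differences below. Of the 66, 3 genes stayed at least 2-fold apart on each of them: Prpf38a and Prpf4 were higher and Hnrnpl was lower.

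Of the 66 genes, Prpf38a had the largest increase at 4 h. The gene (gene ID 230596, chromosome 4, 108564867 to 108579336 in GRCm38) encodes a protein of the precatalytic spliceosome whose yeast counterpart is needed for spliceosome activation. It stood at 11, 61.50, 45.32, 24.90 and 20.13 FPKM at 0, 4, 8, 12 and 24 h. The 4 h library was the highest, and each later library lay between its neighbours in time, with the 24 h value still above that of 0 h. The 4 h level was 5.59 times the 0 h level, a log2 difference of 2.38 as deposited, 3.08 relative to the median gene and 3.43 length-adjusted. At 24 h the difference from 0 h was 0.82, within 2-fold as deposited, and it was 1.29 length-adjusted. Its relative Prpf38b stayed at 26.36, 23.90, 27.23, 27.98 and 40.92 FPKM. The ratio of Prpf38a to Prpf38b was thus 0.417, 2.57, 1.66, 0.890 and 0.492 across the times, above 1 only at 4 h and 8 h.

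Prpf4 (gene ID 70052, chromosome 4, 62408762 to 62426990) encodes a protein of the U4/U6 snRNP that binds Prpf3. It stood at 3.27, 9.53, 5.83, 4.23 and 4.68 FPKM, highest at 4 h by 2.91 times over 0 h, a log2 difference of 1.30 as deposited, 2.0 relative to the median gene and 1.66 length-adjusted. Its partner Prpf3 went the other way as deposited, at 10.25, 6.56, 8.81, 9.19 and 12.02 FPKM, with a log2 difference at 4 h of -0.57 that became 0.16 length-adjusted. The ratio of Prpf4 to Prpf3 was 0.319, 1.45, 0.662, 0.460 and 0.389, so Prpf4 exceeded Prpf3 per length at 4 h alone.

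Hnrnpl (gene ID 15388, chromosome 7, 28808546 to 28822268) encodes an hnRNP that binds CA-rich RNA and is known in lymphocytes for the skipping of CD45 exons. It stood at 94.75, 18.73, 31.96, 50.42 and 60.29 FPKM, lowest at 4 h and higher at each later time, though not back to its 0 h level. At 4 h it was 5.06-fold lower than at 0 h, with a log2 difference of -2.28 as deposited, -1.58 relative to the median gene and -1.51 length-adjusted. At the depth estimated for these libraries, counting error alone gives 95% intervals of 17.55 to 19.97 FPKM at 4 h and 92.1 to 97.5 FPKM at 0 h. Hnrnpll, its paralogue with the same known target in T cells, stood at 17.94, 23.86, 16.41, 15.52 and 13.06 FPKM, with 4 h the highest. The ratio of Hnrnpll to Hnrnpl was 0.189, 1.27, 0.513, 0.308 and 0.217, so the order of the pair was turned at 4 h only.

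**Figure D2:**
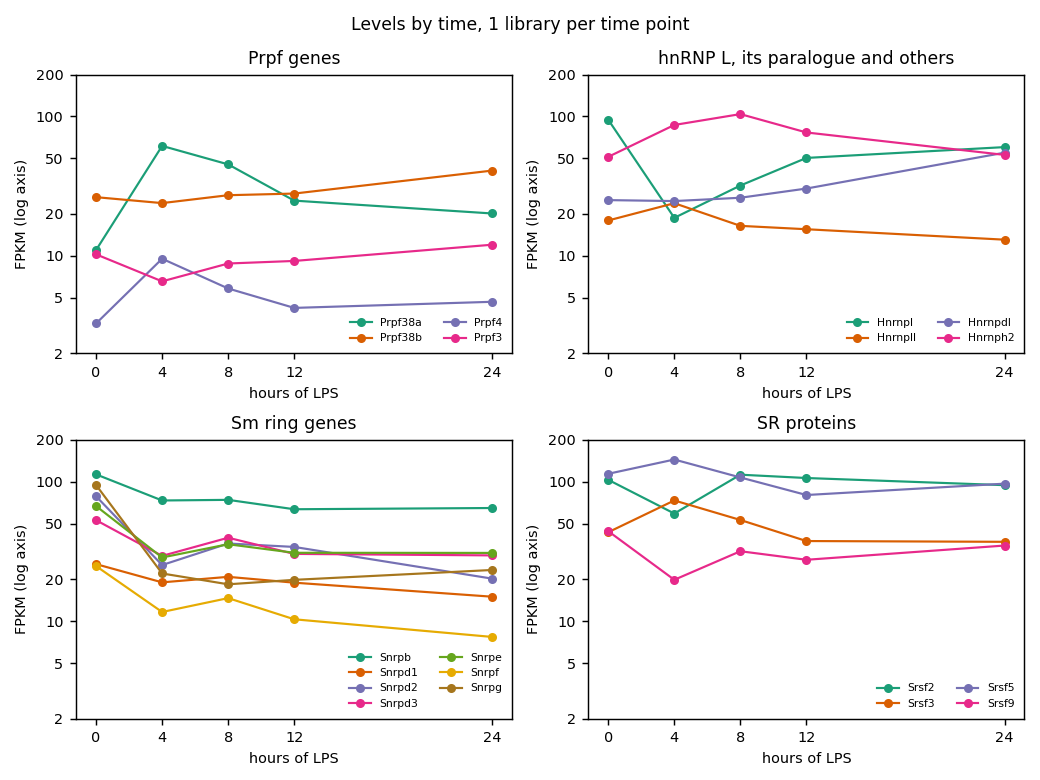
FPKM (log axis) at 0, 4, 8, 12 and 24 h of LPS for 19 genes, 1 library per time point, each point 1 library and lines joining the times of a gene. Prpf38a peaks at 4 h at 61.50 FPKM, Hnrnpl has its minimum there at 18.73 FPKM, and the 7 Sm ring genes are all highest at 0 h.

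The snRNP proteins were the group with the lowest values under LPS. As deposited, 5 of the 11 Snrp genes (45.5%, against 38.1% of all genes tested) were lower by 2-fold or more at 4 h, none was higher, and the median was -0.90. That median became -0.20 relative to the median gene and turned to 0.14 after length adjustment, with 0 of 11 genes then 2-fold lower. The median transcript of the 11 was 1161 nt long, against 3036 nt for all genes tested. Of the 11, 10 were highest at 0 h (90.9%), against 48.7% of all genes tested, and the exception was Snrpa1. The Sm ring, made of the products of 7 genes, is shared by the U1, U2, U4 and U5 particles. Its 7 mRNAs summed to 456.99, 209.29, 239.36, 207.87 and 191.46 FPKM.

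Snrpg, which encodes the Sm protein G (gene ID 68011, chromosome 6, 86371540 to 86378902), was the most reduced of them, at 94.78, 21.98, 18.38, 19.78 and 23.29 FPKM. All 4 later libraries lay far below the first one, with log2 differences at 4 h of -2.06 as deposited, -1.36 relative to the median gene and -0.85 length-adjusted. Snrpd2, for the Sm protein D2, stood at 78.71, 25.26, 36.07, 34.08 and 20.17 FPKM and had its minimum at 24 h. Its difference at 4 h was -1.60 as deposited and -0.52 length-adjusted. Snrpe stood at 66.96, 28.63, 35.63, 30.93 and 30.87 FPKM, a difference at 4 h of -1.20 as deposited that turned to 0.14 length-adjusted. Snrpf stood at 24.83, 11.63, 14.63, 10.31 and 7.70 FPKM, and its difference at 4 h of -1.03 likewise turned to 0.24.

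As deposited, the other ring genes were nearer to their starting level, an order that length adjustment did not keep. Snrpd1 stood at 25.65, 18.98, 20.79, 18.88 and 14.97 FPKM, a difference at 4 h of -0.42 as deposited that was 0.86 length-adjusted. Snrpb, the most abundant of the group, stood at 113.03, 73.42, 74.18, 63.52 and 64.83 FPKM, and Snrpd3 at 53.03, 29.39, 39.68, 30.37 and 29.63 FPKM. The differences of these 2 genes at 4 h were 0.56 and -0.12 length-adjusted. Although 1 copy of each of these proteins sits in a ring, their mRNAs were not at 1 level: the highest of the 7 was 4.55 times the lowest at 0 h, and 6.31, 5.07, 6.16 and 8.42 times at 4, 8, 12 and 24 h.

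Among the particle-specific snRNP proteins, Snrpa, the protein of the U1 particle that binds a stem-loop of its RNA (gene ID 53607, chromosome 7, 27187006 to 27196271), stood at 30.03, 7.95, 15.19, 22.28 and 11.86 FPKM. It was lowest at 4 h, higher at 8 h and 12 h and lower again at 24 h. Its difference at 4 h against 0 h was -1.79 as deposited, -1.10 relative to the median gene and -0.69 length-adjusted. Snrpc, the U1 protein that contacts the 5′ splice site, stood at 46.25, 24.38, 36.34, 31.09 and 32.94 FPKM. Snrpa1, a protein specific to the U2 particle, stood at 12.75, 8.46, 9, 11.41 and 17.54 FPKM, and Snrpb2, which binds U2 RNA together with it, at 49.94, 28.04, 25.36, 18.04 and 21.75 FPKM. The ratio of Snrpa1 to Snrpb2 was 0.255, 0.302, 0.355, 0.632 and 0.806, higher at each later time.

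SR proteins diverged from each other at 4 h. The median of the 10 Srsf genes was -0.22 as deposited and turned to 0.47 relative to the median gene and 0.36 length-adjusted, and 1 of them, Srsf9, was 2-fold lower as deposited. Length-adjusted, none was lower and 4 were higher (40%, against 19.8% of all genes tested), namely Srsf3, Srsf4, Srsf5 and Srsf7. Srsf9 stood at 44.19, 19.80, 31.74, 27.56 and 34.87 FPKM, with a difference of -1.12 at 4 h that turned to 0.053 length-adjusted, its transcript being 1162 nt long. Srsf3, the smallest SR protein, had nearly the same level as Srsf9 at 0 h and was highest at 4 h, at 43.46, 73.46, 53.20, 37.56 and 37.09 FPKM. The ratio of Srsf3 to Srsf9 was 0.983, 3.71, 1.68, 1.36 and 1.06, so the pair stood apart at 4 h and was near 1 at 0 h and 24 h. The Srsf3 difference at 4 h was 0.74 as deposited, within 2-fold, and passed it at 1.44 relative to the median gene and 1.53 length-adjusted.

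Srsf5, the most abundant SR gene by mean, stood at 114.12, 144.45, 107.41, 80.36 and 96.94 FPKM, with a difference of 0.34 at 4 h as deposited and 1.37 length-adjusted. Srsf7 stood at 15.12, 20.92, 19.21, 15.29 and 18.21 FPKM, with 0.44 as deposited and 1.26 length-adjusted. Srsf2, also called SC35, moved differently, at 103.27, 59.17, 112.43, 106.42 and 94.56 FPKM: the 4 h library was the lowest and the 8 h library the highest. Its difference at 4 h was -0.79 as deposited and turned to 0.16 length-adjusted. The remaining Srsf genes, Srsf1, Srsf4, Srsf6, Srsf10 and Srsf11, lay between 13.77 and 36.28 FPKM in all libraries and, as deposited, within 2-fold of 0 h throughout. Length-adjusted, Srsf4 was past it at 4 h, at 1.06.

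Within the Hnrnp group, 2 of 20 genes were 2-fold lower at 4 h than at 0 h as deposited, Hnrnpl and Hnrnpr, and none was higher. Length-adjusted, these were lower and 4 were higher, namely Hnrnpa1, Hnrnpa2b1, Hnrnph2 and Hnrnpll, with values between 1.01 and 1.28. That was 10% lower and 20% higher, near the 11.9% and 19.8% of all genes tested on that scale. The group's median was -0.062, which turned to 0.63 relative to the median gene and 0.55 length-adjusted. Hnrnpr was low in every library, at 6.05, 2.35, 2.55, 2.93 and 5.06 FPKM. Its difference at 4 h was -1.07 as deposited, -0.38 relative to the median gene and -1.24 length-adjusted, the last with an annotated transcript of 21452 nt and -0.38 with the shortest RefSeq-matched one. Hnrnph2, which binds G-rich runs, stood at 51.34, 86.92, 104.02, 76.79 and 53.00 FPKM and was highest at 8 h. Its near relative Hnrnph1 stood at 48.35, 39.15, 36.27, 32.48 and 45.41 FPKM. The ratio of Hnrnph2 to Hnrnph1 was 1.06, 2.22, 2.87, 2.36 and 1.17, so the pair had like levels at 0 h and 24 h and stood apart between.

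Hnrnpa0, a binder of AU-rich elements in inflammatory mRNAs, stood at 45.15, 23.71, 26.18, 24.43 and 25.54 FPKM and was lower at all 4 later times, by a log2 difference of -0.90 at 4 h and -0.80 at 24 h. These became -0.13 and -0.64 length-adjusted. Hnrnpu, the nuclear matrix protein also called SAF-A, stood at 99.54, 54.02, 66.84, 64.59 and 74.36 FPKM. As deposited, the most abundant genes of the group varied little, with Hnrnpk at 143.14, 153.21, 140.70, 107.72 and 124.85 FPKM, and Hnrnpf between 108.30 and 151.94 FPKM, Hnrnpa2b1 between 106.99 and 146.33 FPKM and Hnrnpa3 between 79.88 and 112.33 FPKM. Length-adjusted, their differences at 4 h against 0 h were 0.82, 0.64, 1.01 and 0.22, in that order. Hnrnpa1, a classical exon skipping factor, stood at 51.58, 59.24, 62.97, 61.70 and 61.68 FPKM. Hnrnpd, which encodes the mRNA decay factor AUF1, stood between 13.14 and 17.10 FPKM.

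The SF3 complexes are parts of the U2 particle and clamp the branch point. At 4 h against 0 h, 1 of the 9 Sf3 genes was 2-fold lower and none was higher as deposited, with a median of -0.46 that turned to 0.24 relative to the median gene and 0.40 length-adjusted. The counts turned too: none was lower on either of these scales and 2 were higher. These were Sf3b1 and Sf3b3 relative to the median gene and Sf3a3 and Sf3b3 length-adjusted. On each scale that was 22.2%, near the 21.5% and 19.8% of all genes tested. Sf3b5, the smallest SF3b subunit, stood at 52.53, 22.71, 20.12, 21.40 and 25.55 FPKM. All 4 later libraries lay below the first, by -1.17 at 4 h as deposited and -0.63 length-adjusted. The adjusted value is uncertain, because it used a transcript of 3841 nt where RefSeq's bounds for the gene span 734 bases. Sf3b1, the subunit that holds the branch point, was by contrast highest at 4 h, at 36.52, 61.92, 42.93, 46.30 and 42.66 FPKM. Sf3b3 did likewise, at 19.66, 30.23, 24.12, 20.25 and 19.48 FPKM. Sf3b2, the most abundant, stood at 85.98, 51.90, 66.42, 70.12 and 53.26 FPKM, and Sf3b6, which contacts the branch point adenosine, at 32.14, 19.68, 28.05, 21.28 and 27.41 FPKM. Subunits of 1 complex thus stood on both sides of 0 h in the same library: at 4 h the differences were 0.75 for Sf3b1, 0.60 for Sf3b3, -0.68 for Sf3b6, -0.72 for Sf3b2 and -1.17 for Sf3b5. Length-adjusted, these were 1.07 for Sf3b3, 0.95 for Sf3b1, 0.49 for Sf3b6, -0.041 for Sf3b2 and the uncertain -0.63 for Sf3b5.

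Of the other Prpf genes, none reached 2-fold at 4 h in log2(FPKM + 1) as deposited or length-adjusted. In plain FPKM, Prpf40b was 2.60-fold and Prpf19 2.01-fold lower at 4 h than at 0 h. Relative to the median gene, 4 of the 13, with Prpf38a and Prpf4, were higher (30.8%, against 21.5% of all genes tested) and none was lower. The median of the 13 was -0.27 as deposited, turning to 0.42 relative to the median gene and 0.26 length-adjusted. Prpf6, of the U5 and tri-snRNP particles, stood at 22.56, 11.46, 13.66, 17.51 and 16.52 FPKM. Its difference of -0.92, which was -0.21 length-adjusted, was the nearest to 2-fold lower among those within it as deposited, and Snrpf at -1.03 was the nearest beyond. Prpf19, the ubiquitin ligase of the Prp19 complex, stood at 10.75, 5.35, 4.55, 6.04 and 7.08 FPKM. Prpf40b was the lowest member at 4 h, at 3.02, 1.16, 2.56, 3.51 and 3.41 FPKM; its 4 h value corresponds to about 71.6 reads, with a counting interval of 0.907 to 1.46 FPKM. Prpf8, the large protein at the catalytic centre, stood at 25, 27.79, 23.08, 29.53 and 32.01 FPKM.

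In the U2af group, U2af1l4 was 2-fold lower at 4 h, at 24.88, 10.49, 12.70, 14.55 and 18.86 FPKM, with a difference of -1.17 as deposited that turned to 0.093 length-adjusted. The gene encodes U2AF26, which can take the place of U2af1. U2af1 itself, which reads the AG at the 3′ splice site, stood at 36.51, 22.63, 25.57, 22.42 and 29.22 FPKM, while U2af2 was level. The ratio of U2af2 to U2af1 was 1.37, 2.30, 2.11, 2.20 and 1.77.

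**Figure D3:**
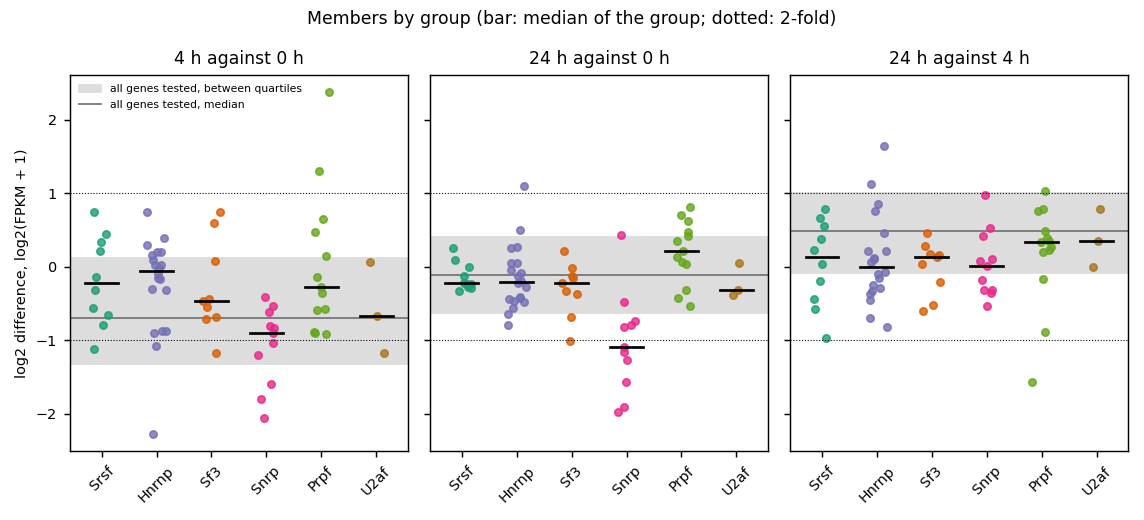
Log2 difference of log2(FPKM + 1) for each of the 66 genes by group, at 4 h against 0 h, 24 h against 0 h and 24 h against 4 h, with the group median as a bar, 2-fold as dotted lines and the range between the quartiles of all genes tested in grey. The Snrp median is the lowest at 4 h (-0.90) and at 24 h (-1.09); at 4 h it turns to 0.14, and the other group medians turn above 0, once the length trend is removed.

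At 24 h against 0 h, 1 of the 66 genes was at least 2-fold higher and 7 were at least 2-fold lower, that is 1.52% and 10.6%, against 11.3% higher and 14.5% lower of all genes tested. The median of the 66 was -0.23 as deposited, -0.12 relative to the median gene and -0.017 length-adjusted. Of all genes apart at that time, 43.7% were higher as deposited and 55.9% after length adjustment. The reduced genes were 6 of the 11 Snrp genes and Sf3b5. The higher one was Hnrnpdl, at 25.11, 24.72, 26.11, 30.40 and 54.99 FPKM, level to 12 h and then 2.19 times the 0 h value at 24 h. Its difference from 0 h was 1.10 as deposited, 1.21 relative to the median gene and 1.25 length-adjusted. Its relative Hnrnpd showed no such step, and the ratio of Hnrnpdl to Hnrnpd was 1.91, 1.68, 1.53, 1.97 and 3.43.

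Against 0 h, the Snrp median as deposited was -0.90, -0.72, -0.82 and -1.09 at 4, 8, 12 and 24 h. Length-adjusted it was 0.14, 0.29, 0.047 and -0.70, below 0 at 24 h alone. At 24 h it was -0.99 relative to the median gene, and so negative on each scale. The largest differences were -1.98 for Snrpg, -1.91 for Snrpd2 and -1.57 for Snrpf. Length-adjusted, Snrpg at -1.25 and Snrpd2 at -1.39 remained 2-fold lower, and Snrpa1 was then 2-fold higher at 1.04. Snrpa stood at -1.27, Snrpb2 at -1.16 and Snrpe at -1.09 as deposited, and length adjustment brought these to -0.72, -0.87 and -0.035. Sf3b5 was just past 2-fold at -1.01 as deposited, and the nearest Snrp gene within 2-fold was Snrpd3 at -0.82. Length-adjusted, Sf3b5 was at -0.99 on an annotated transcript of 3841 nt. The setting with the shortest RefSeq-matched transcript, which keeps the longest where none is matched, gave -1.05. RefSeq's bounds for the gene span 734 bases, so its length-adjusted values are uncertain. As deposited, 6 genes were lower at both 4 h and 24 h (Snrpa, Snrpd2, Snrpe, Snrpf, Snrpg and Sf3b5), and 4 were lower at 4 h but within 2-fold at 24 h (Hnrnpl, Hnrnpr, Srsf9 and U2af1l4). Both comparisons share the 0 h library. The group medians of the other genes at 24 h were -0.23 for Srsf, -0.21 for Hnrnp, -0.22 for Sf3, 0.21 for Prpf and -0.31 for U2af. Those of Srsf and U2af turned to 0.068 and 0.42 after length adjustment.

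**Figure D4:**
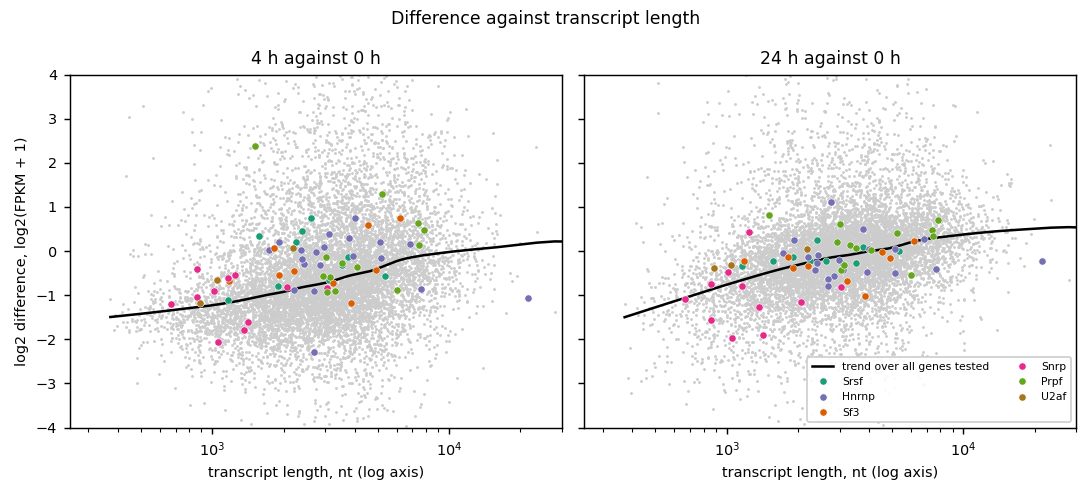
Log2 difference of log2(FPKM + 1) against transcript length (log axis, nt) at 4 h against 0 h and 24 h against 0 h, with all genes tested in grey, the 66 genes in colour by group and the trend over all genes as a line; genes beyond 4 on either side are outside the axes. The Snrp genes lie at short lengths (median 1161 nt); at 24 h, 8 of the 11 lie below the trend, and at 4 h 4 of them do.

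At 24 h against 4 h, 3 of the 66 genes were at least 2-fold higher (4.55%) and 1 was lower (1.52%), against 25.0% higher and 8.19% lower of all genes tested. Hnrnpl was higher at 24 h by 1.64, Hnrnpdl by 1.12 and Prpf40b by 1.03, and Prpf38a was lower by a log2 difference of -1.56. Relative to the median gene, Hnrnpl at 1.15 and Prpf38a at -2.05 remained past 2-fold, while Hnrnpdl at 0.63 and Prpf40b at 0.54 did not. The median of the 66 was 0.11 as deposited and turned to -0.38 both relative to the median gene and length-adjusted. Relative to the median gene the counts became 1 higher and 9 lower (1.52% and 13.6%, against 9.65% and 15.3% of all genes tested). Length-adjusted they were 1 higher and 7 lower (1.52% and 10.6%, against 9.81% and 14.8%). Over all genes apart, 75.3% were higher as deposited, 38.6% relative to the median gene and 39.8% length-adjusted. Srsf3, just within 2-fold lower at -0.97 as deposited, was at -1.51 length-adjusted.

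Between adjacent later times most of the genes moved little. From 4 to 8 h, 8 to 12 h and 12 to 24 h, 0 of the 66 reached 2-fold in log2(FPKM + 1) as deposited. In plain FPKM the low gene Prpf40b did, going from 1.16 FPKM at 4 h to 2.56 FPKM at 8 h, 2.21 times as much. On the other scales Snrpa reached 2-fold at 24 h against 12 h, at -1.08 relative to the median gene and -1.01 length-adjusted. Of all genes tested, 5.23% were higher and 3.88% lower at 8 h against 4 h, 2.58% and 0.939% at 12 h against 8 h, and 3.42% and 3.50% at 24 h against 12 h. The largest steps were 0.91 for Srsf2 and 0.86 for Snrpa at 8 h against 4 h, with Prpf4 at -0.62 and Sf3b1 at -0.52 on the other side. At 12 h against 8 h they were 0.64 for Hnrnpl and 0.52 for Snrpa, with Prpf38a at -0.84 and Hnrnpc, a binder of uridine tracts, at -0.54. At 24 h against 12 h Hnrnpdl stood at 0.83 and Hnrnpr at 0.62, with Snrpa at -0.86 and Snrpd2 at -0.73.

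Promoter sequences were compared with those of all genes tested. RefSeq windows of 250 bases before the start to 50 after it were at hand for 57 of the 66 genes (75 windows), with a median of 60.3% G and C, against 60.7% in windows of genes tested. Each of 9 motifs was searched on both strands, and matches to different motifs may overlap. The ETS core CCGGAAG was in 33.3% of the members' windows, against 19.5% of windows of genes tested and 8.86% of all 32851 windows. By group its share ran from 87.5% for Sf3 (7 of 8 windows, 6 of 7 genes) to 14.8% for Hnrnp and 0% for U2af. Windows of the same gene can overlap and share a match, as those of Sf3b2 do. The GC box GGGCGG was in 66.7% of the members' windows, against 63% and 35.7%. The box CCAAT was in 49.3%, against 37.5% and 37.4%, and in 17 of the 27 windows of Hnrnp genes (13 of 18 genes). The E-box CACGTG was in 14.7%, against 10.5% and 7.15%.

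The remaining motifs were rare. The TATA box TATAAA was in 8% of the members' windows, against 6.92% and 13.6%, and the YY1 motif AAGATGGC in 4%, against 4.89% and 2.75%. For the NRF1 motif GCGCATGC the shares were 5.33%, against 5.55% and 2.71%. The NF-kB motif GGGNNTTTC, whose N stands for any base, was in 2.67%, against 4.33% and 4.36%, and the IRF motif TTCNNTTTC in 5.33%, against 7.56% and 8.56%. Both windows with the NF-kB letters belonged to Prpf genes, and neither Prpf38a nor Prpf4 was among them. A match is a run of letters and not a measured site, and no binding was measured here.

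Genes that act with the 66 but are named otherwise were followed as lists. The kinases that phosphorylate SR proteins, 6 of which passed the filter, had 3 members lower at 4 h as deposited (50%, against 38.1% of all genes tested) and none higher. Relative to the median gene none was 2-fold apart, and length-adjusted Srpk2 alone was, at -1.35. The median was -1.10 as deposited, -0.40 relative to the median gene and -0.18 length-adjusted. Clk4 stood at 22.52, 7.02, 11.57, 17.65 and 17.92 FPKM and Srpk2 at 8.18, 2.19, 1.23, 2.25 and 4.54 FPKM, whereas Srpk1 was at 7.72 FPKM at both 0 h and 4 h and at 11.40 FPKM at 24 h. Clk2 stood at 14.96, 5.31, 6.19, 8.54 and 8.66 FPKM, and Clk3 stayed between 19.80 and 23.53 FPKM. None of the 6 was 2-fold apart at 24 h.

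Of 46 other splicing regulators tested, 4 were higher and 4 lower at 4 h as deposited (8.70% each, against 12.2% and 38.1% of all genes tested), and 7 were higher and 1 lower length-adjusted. The median of -0.14 turned to 0.30 length-adjusted. At 24 h 1 was higher and 2 lower as deposited. The SR-like factor Tra2a peaked sharply, at 30.23, 150.24, 42.09, 16.68 and 15.68 FPKM, so that its 4 h library stood alone. Its paralogue Tra2b did so too, at 41.28, 92.16, 36.75, 28.76 and 34.43 FPKM. The paraspeckle protein Nono stood at 76.04, 162.99, 197.47, 122.62 and 70.41 FPKM. Rbm10 was lower at 4 h, at 3.04 FPKM against 9.98 FPKM at 0 h, as was Tia1, at 1.48 FPKM against 4.80 FPKM. At 24 h the higher gene was Mbnl2, at 51.54 FPKM against 24.08 FPKM at 0 h, and Srrm2, within 2-fold, stood at 43.85 FPKM against 25.99 FPKM. The lower genes at 24 h were Mbnl1, at 58.65 FPKM against 124.94 FPKM at 0 h, and Ybx1, at 116.76 FPKM against 244.46 FPKM.

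Among 30 other U snRNP and Sm-like genes, such as the Lsm genes of the U6 particle, 13 were lower at 4 h as deposited (43.3%, near the 38.1% of all genes tested) and none higher. Length-adjusted the count turned to none lower and 3 higher, namely Snrnp35, Rnpc3 and Lsm8, and the median of -0.79 became -0.089 relative to the median gene and -0.023 length-adjusted. At 24 h 5 were lower as deposited (16.7%, against 14.5% of all genes tested), 0 length-adjusted, and none was higher. Lsm7 stood at 23.91, 5.17, 8.89, 8.12 and 9.80 FPKM and Lsm2 at 14.96, 3.97, 4.32, 4.47 and 5.05 FPKM. Zmat5, a protein of the minor U11/U12 particle, was at 5.14 FPKM at 4 h against 20.42 FPKM at 0 h. Rnpc3 and Snrnp35 of the same particle were at 7.84 and 17.24 FPKM at 4 h against 3.82 and 10.93 FPKM at 0 h, within 2-fold on the log2 scale as deposited. The helicase Snrnp200 and the recycling factor Sart3 had the highest differences at 24 h against 0 h, 0.58 and 0.37. Of 31 proteins of the catalytic step and the Prp19 complex, 5 were lower at 4 h as deposited. That was 16.1%, against 38.1% of all genes tested. None was lower at 24 h, and none was higher at either time. Length-adjusted, none was lower and 4 were higher at 4 h, and the median of -0.29 turned to 0.34. Bcas2, a partner of Prpf19, stood at 40.38, 9.69, 11.05, 11.96 and 20.13 FPKM, and Mfap1a stood at 6.26 FPKM at 4 h against 16.83 FPKM at 0 h. Dhx15, a helicase that takes spliceosomes apart, and Syf2 were highest at 4 h, at 61.51 and 74.88 FPKM against 31.67 and 48.73 FPKM at 0 h. The differences at 24 h against 0 h ran up to 0.76 for Dhx38 and 0.59 for Cwc25, and down to -0.97 for Bcas2 and -0.79 for Ctnnbl1.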

How the data were processed

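RNA of 5 libraries of LPS-treated macrophages was sequenced on the BGISEQ-500, per the labels' protocols. The authors deposited FPKM with 2 decimals in 1 table, 1 column per library, per the file headers; 0 further columns of per-sample values were present. The submitters' processing notes name Bowtie2, RSEM and GRCm38; no version, annotation or strand setting is given in these. RSEM divides reads shared by near-identical copies by estimate, so genes with paralogues or processed pseudogenes are less certain.

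Genes with a mean of at least 1 FPKM (9795) were compared over 8 pairs of libraries as differences of log2(FPKM + 1), 2-fold counting as apart. With 1 library per time no test was run. Alternatives were pseudocounts of 0.1 and 5, no filter, a mean of at least 10 FPKM, centring on the median gene, removal of the length trend (lowess, fraction 0.3, on the longest protein-coding GENCODE M21 transcript, found for 99.5% of genes) and 1.5-fold.

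Depth was estimated from genes with 1 transcript of 400 to 2500 nt: with a length reduced by 40 nt, 55.2% to 67.6% of 87 to 108 low values per library were whole reads, within 0.04 reads or a rounding error of 0.005 FPKM; chance gave 25.4% to 26.5%. The step was chosen for the best match, so the depth is an estimate. Intervals are Poisson, 95%, and cover counting error only.

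All 66 gene IDs and symbols matched RefSeq. The scripts were tested on simulated data and used Python 3.11.15, pandas 2.3.3, numpy 2.4.6, scipy 1.17.1, statsmodels 0.14.6 and matplotlib 3.10.9. The members and gene lists were chosen with earlier results of these data known. Genes were named by rule: in each of the 6 groups the highest by mean and those with the largest difference in each direction in the 3 main comparisons, between adjacent later times the 2 largest in each direction, and in each gene list the 2 largest in each direction at 4 h and at 24 h against 0 h. The other genes named, mostly partners, paralogues and those 2-fold apart, were chosen after their values were seen. The values of 1 of the 66 genes and of 1 listed gene, both included in the counts, are not reported here.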

Additional observations from a re-analysis of the deposited data

How the results depend on the processing

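Directions in these libraries depended most on scaling. At 4 h against 0 h, 2 of the 66 genes were higher, 10 were lower and the median was -0.39. A pseudocount of 5 gave 1 and 6, and a mean of at least 10 FPKM, which leaves 57 of the genes, gave 1 higher. Centring on the median gene gave 11 and 3 (median 0.31), removal of the length trend 12 and 2 (0.40), the same with the shortest RefSeq-matched transcript, chosen after seeing the data, 11 and 1 (0.40), and 1.5-fold 7 and 26. At 24 h against 0 h the counts of 1 and 7 (median -0.23) became 0 higher with a pseudocount of 5, 3 and 2 (-0.017) without the length trend, 2 and 3 (-0.030) with the shortest transcript and 4 and 13 at 1.5-fold, and centring moved the median to -0.12. At 24 h against 4 h the counts of 3 and 1 (median 0.11) became 5 and 2 with a pseudocount of 0.1, 1 and 9 (-0.38) when centred, 1 and 7 (-0.38) without the length trend, 1 and 7 (-0.39) with the shortest transcript and 11 and 6 at 1.5-fold, and the median was 0.057 at a mean of at least 10 FPKM. The cause was not tested.

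At 4 h against 0 h, removal of the length trend reversed Snrpe (0.14), Snrpf (0.24), Srsf9 (0.053), U2af1l4 (0.093), Lsm4 (0.24) and Lsm3 (0.070), and the shortest transcript reversed Snrpe (0.12), Snrpf (0.13), Lsm4 (0.13) and Lsm3 (0.015). Lsm5 at 24 h against 0 h turned to 0.16 without the length trend, and Snrpe at 12 h against 0 h to 0.13, or 0.048 with the shortest transcript. On the deposited, centred and both length-adjusted scales, Prpf38a and Prpf4 (higher) and Hnrnpl (lower) were 2-fold apart at 4 h, Hnrnpdl (higher), Snrpd2 and Snrpg (lower) at 24 h against 0 h, and Hnrnpl (higher) and Prpf38a (lower) at 24 h against 4 h. No paired analysis was possible because each time has 1 library and no test was made. Leaving out a replicate was not possible for the same reason. Depth limited the low genes most, such as Prpf40b, with about 71.6 reads at 4 h.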

Other observations

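Genes of the exon junction complex and of nonsense-mediated decay, the pathway that removes transcripts with premature stop codons and on which several splicing factors depend for their own control, were followed as a further list. Of 16 tested, 2 were higher and 1 lower at 4 h against 0 h (12.5% and 6.25%, against 12.2% and 38.1% of all genes tested), with a median of -0.35 that turned to 0.37 length-adjusted. At 24 h 3 were higher and none lower (18.8% higher, against 11.3% of all genes tested), with medians of 0.23 as deposited and 0.45 length-adjusted. Smg1, the kinase of Upf1, stood at 5.59, 10.89, 7.43, 11.39 and 17.57 FPKM at 0, 4, 8, 12 and 24 h and was highest at 24 h, as was Smg9, a regulator of that kinase, at 18.32, 12.42, 17.93, 21.62 and 38.08 FPKM. Magohb, for a core protein of the junction complex, stood at 3.91, 11.79, 12.74, 11.62 and 5.80 FPKM. Upf3b, which links the complex to decay, was the lowest at 4 h, at 10.87, 1.70, 2.86, 3.60 and 6.29 FPKM. Smg6, an endonuclease of the pathway, stood at 1.47 FPKM at 4 h against 3.52 FPKM at 0 h, and Eif4a3, the helicase of the junction complex, at 29.23 FPKM at 24 h against 52.05 FPKM at 0 h, both within 2-fold on the log2 scale.

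Of 15 genes of the SMN complex and snRNP assembly, the factors that build snRNPs, 6 were lower and none higher at 4 h against 0 h as deposited. That is 40%, near the 38.1% of all genes tested, and length-adjusted none was lower and 1, Tgs1, was higher. The list had a median of -0.90 as deposited and -0.21 both relative to the median gene and length-adjusted. At 24 h 2 were lower as deposited (13.3%, against 14.5% of all genes tested), 0 length-adjusted, and none higher. Phax, the export adaptor of U snRNAs, stood at 23.85, 6.67, 9.38, 8.51 and 10.53 FPKM, and Prmt5, the methyltransferase that modifies Sm proteins, at 11.07, 3.03, 4.31, 6.68 and 9.85 FPKM. Tgs1, which hypermethylates the snRNA cap, was highest at 4 h, at 17.60 FPKM against 10.14 FPKM at 0 h. Strap stayed between 25.64 and 32.11 FPKM and Coil, for coilin, between 1.48 and 2.96 FPKM, while Gemin7 was lower at 24 h, at 19.82 FPKM against 41.64 FPKM at 0 h. Of 11 cell cycle genes tested, 1 was higher and 5 were lower at 4 h against 0 h as deposited. That was 9.09% and 45.5%, against 12.2% and 38.1% of all genes tested. Length-adjusted, 1 was higher and 2 were lower at 4 h. At 24 h 0 were higher and 1 was lower as deposited (9.09%, against 14.5% of all genes tested). The part of these genes in the snRNP differences was not tested.

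As a check of the stimulus, all 5 LPS response genes followed were at least 2-fold higher at 4 h and at 24 h than at 0 h, and together they summed to 10660.73 FPKM at 4 h against 20.94 FPKM at 0 h.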
